A study of Mus musculus with 49 samples.

Results

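Nfe2l2, Hmox1, Nqo1, Gclc, Gclm, Txnrd1, Prdx1, Srxn1, Mt1 and Mt2, genes of the antioxidant and metal-binding response, were followed in the neocortex of 49 mice. They were chosen by their symbols in the gene count table, with earlier results of these data known. All 10 of them, of 45252 genes in the table, passed the filter on low counts. Of these, 7 were higher in rNLS8 mice that received PBS than in their monogenic controls, where 21.9% of all genes tested were higher. In rNLS8 mice immunized with peptides 10 and 12 the number was 5, beside 20.8% of all genes, and in those immunized with peptide 15 it was 8, beside 23.6%. Hmox1 rose furthest, followed by Mt2 in TDP-PBS, TDP-10+12 and TDP-15 alike, while Nqo1 and Prdx1 passed the test in no comparison.

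NRF2, the protein of Nfe2l2, is a transcription factor that is kept scarce by Keap1, which hands it to the proteasome. When oxidants or electrophiles modify Keap1, NRF2 accumulates, pairs with small MAF proteins and binds antioxidant response elements near genes for glutathione synthesis, thioredoxin recycling, quinone reduction and heme breakdown. The repressor Bach1 occupies such elements when heme is scarce. Metallothioneins are small cysteine-rich proteins that bind zinc and copper. Mt1 and Mt2 are made mainly by astrocytes in the brain and respond to zinc through the factor Mtf1, and to glucocorticoids and oxidants, whereas Mt3 is the brain-enriched member of the family.

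The rNLS8 mouse models TDP-43 proteinopathy. It is bigenic, heterozygous for a transactivator driven by the neurofilament heavy chain promoter (NEFH-tTA), which acts in neurons, and for tetO-hTDP-43ΔNLS, a human TDP-43 that lacks the signal for nuclear import. The controls were monogenic littermates that carry the tetO-hTDP-43ΔNLS allele alone and lack the transactivator that turns it on. The strain of all mice is given as mixed C57BL/6J x C3H/HeJ. They had doxycycline taken out of the chow at 25.5 weeks and were examined 3 weeks later, at 28.5 weeks. From 8 weeks on they were injected 5 times before this induction and 1 time after it, with 40 µg of ovalbumin-coupled TDP-43 peptide or with PBS in place of the conjugate. CpG and Alhydrogel served as adjuvants, and whether the PBS mice also received them is not stated separately. The groups were ctrl-PBS (monogenic, PBS, 10 females and 7 males), TDP-PBS (bigenic, PBS, 4 females and 6 males), TDP-10+12 (bigenic, peptides 10 and 12 from the glycine-rich domain, 6 females and 4 males) and TDP-15 (bigenic, peptide 15 with the phosphorylated C-terminus, 5 females and 7 males). No immunized monogenic mice were among them, so the peptides were compared within rNLS8 mice.

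One library was sequenced per mouse, with total counts between 17775738 and 21033608 and a median of 19955601. The labelled sex went against Xist and Ddx3y in 0 mice. Mouse Tardbp, which codes for endogenous TDP-43, measured 146 ± 9.27 CPM (SD) in the 17 ctrl-PBS mice, 118 ± 14.0 in the 10 TDP-PBS mice, 124 ± 9.47 in the 10 TDP-10+12 mice and 121 ± 10.1 in the 12 TDP-15 mice, and these numbers of mice stand behind every mean ± SD given for a group. The human transgene was not analysed here. CPM are gene counts relative to the library's total, scaled by edgeR's trimmed mean of M-values (TMM). Fold changes are fitted by edgeR, and a gene is called changed at an adjusted p under 0.05 over all 18220 genes tested. In bulk tissue, fewer cells of a type and less RNA per cell cannot be told apart. Animals 301 (TDP-10+12) and 126 (TDP-15) stood at the top of their groups for several of the genes, and values without them are given where they matter.

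The promoters of the metallothionein pair, Mt1 and Mt2, which lie side by side on chromosome 8, are shown because these genes moved together from mouse to mouse. Both windows run from 250 bases before to 50 after a start in the RefSeq promoter set (GRCm38.p6, plus strand, 5′ to 3′). For Mt2 that start is the first base of the locus given further on. For Mt1 it lies inside the locus, which begins at chr8:94178883. Most of the Mt1 window therefore falls within the annotated span of the gene. Capitals mark the core of the metal response element, spelled TGCACNC or TGCGCNC and searched on both strands.

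Mt1, chr8:94178839-94179138: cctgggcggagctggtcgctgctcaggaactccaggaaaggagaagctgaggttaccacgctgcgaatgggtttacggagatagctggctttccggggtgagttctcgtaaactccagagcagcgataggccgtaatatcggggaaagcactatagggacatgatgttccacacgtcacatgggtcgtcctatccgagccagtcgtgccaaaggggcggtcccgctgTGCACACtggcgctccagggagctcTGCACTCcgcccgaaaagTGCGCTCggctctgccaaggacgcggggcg

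Mt2, chr8:94172368-94172667: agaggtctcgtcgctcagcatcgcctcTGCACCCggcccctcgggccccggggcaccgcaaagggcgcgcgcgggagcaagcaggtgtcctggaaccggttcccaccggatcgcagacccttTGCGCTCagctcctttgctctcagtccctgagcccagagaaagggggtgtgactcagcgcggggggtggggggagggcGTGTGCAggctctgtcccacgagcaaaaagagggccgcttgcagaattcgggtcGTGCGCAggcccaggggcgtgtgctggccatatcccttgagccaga

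Mt1 holds 3 of these cores and Mt2 holds 4. Among 32851 RefSeq promoters of the same length 25.7% hold at least 1, 1.97% hold 3 or more and 0.517% hold 4 or more. Gclm holds 3 and Srxn1 holds 1, and the windows of Nfe2l2, Nqo1, Txnrd1 and Prdx1 hold none of these letters. The core of the antioxidant response element, TGACNNNGC on either strand, occurs in 12.4% of the promoters. It lies in the windows of Nfe2l2, Gclm, Txnrd1, Prdx1, Srxn1 and Mt2. These matches are shown next with up to 25 bases on either side and the core in capitals. Whether an NRF2-MAF pair reads them was not tested.

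Nfe2l2, position -240 from the start, chr2:75704870-75704913, minus strand: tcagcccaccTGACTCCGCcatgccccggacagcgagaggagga

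Gclm, position -134, chr3:122245398-122245456, plus strand: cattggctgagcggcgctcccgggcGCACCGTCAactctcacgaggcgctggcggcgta

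Txnrd1, position -92 of promoter 2 of 3, chr10:82859089-82859147, plus strand: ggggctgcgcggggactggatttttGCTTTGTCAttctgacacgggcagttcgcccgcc

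Prdx1, position -133, chr4:116685441-116685499, plus strand: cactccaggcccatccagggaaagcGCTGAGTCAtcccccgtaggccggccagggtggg

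Srxn1, position 29, chr2:152105527-152105573, plus strand: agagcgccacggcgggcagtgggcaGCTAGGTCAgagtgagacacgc

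Mt2, position -79, chr8:94172514-94172572, plus strand: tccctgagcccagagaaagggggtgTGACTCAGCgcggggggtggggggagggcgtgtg

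The windows of Nqo1 and Mt1 do not contain these letters, and Hmox1 and Gclc are among the 10 genes but not among the 8 matched to the promoter table. Only windows of this reach were searched, so sites elsewhere in or near a gene were not looked for. The AP-1 site TGANTCA, found in 7.81% of promoters, occurs 2 times in Prdx1, 2 times in Srxn1 and 1 time in Mt2. In Mt2 and at position -131 of Prdx1 it overlaps the antioxidant core. Letters in a window are a description and do not show binding. Positions count from the start used for each window, which for Gclm lies inside the locus that begins at chr3:122245487.

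Nfe2l2 (chr2:75675513-75704663, minus strand) was higher in all 3 rNLS8 groups. In ctrl-PBS it ranged from 10.5 to 17.98 CPM with a median of 13.9, and in TDP-PBS from 13.3 to 22.5 with a median of 19.2. It lay between 13.4 and 21.97 in TDP-10+12 (median 17.3) and between 11.3 and 27.4 in TDP-15 (median 17.3). The groups overlapped, and 16 of 32 rNLS8 mice, 8 of them TDP-PBS, exceeded every ctrl-PBS mouse. The fitted log2 fold change was 0.46 ± 0.10 (SE) in TDP-PBS (edgeR adjusted p = 0.000143), 0.33 ± 0.10 in TDP-10+12 (adjusted p = 0.00646) and 0.34 ± 0.10 in TDP-15 (adjusted p = 0.00237). Without the 11 mice rich in choroid plexus markers the value in TDP-10+12 was 0.30 (adjusted p = 0.0533). These are differences in the mRNA, whereas NRF2 is controlled chiefly by its degradation, which counts do not show.

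Hmox1, heme oxygenase 1, which splits heme into biliverdin, iron and carbon monoxide (chr8:75093618-75100593, plus strand), had the largest differences of the 10. Its CPM ranged from 2.86 to 6.53 in ctrl-PBS (median 4.35), from 4.87 to 11.1 in TDP-PBS (median 7.73), from 4.32 to 11.4 in TDP-10+12 (median 6.76) and from 5.39 to 14.4 in TDP-15 (median 6.84). Nearly all rNLS8 mice were high: 31 of 32 lay above the ctrl-PBS median and 24 above the highest ctrl-PBS mouse. The log2 fold change was 0.84 ± 0.13 in TDP-PBS (1.79-fold, edgeR adjusted p = 3.75e-07), 0.74 ± 0.13 in TDP-10+12 (1.67-fold, adjusted p = 5.49e-06) and 0.77 ± 0.12 in TDP-15 (1.71-fold, adjusted p = 6.6e-07). The highest values, 14.4 in animal 126 and 11.4 in animal 301, came from the mice named above, and without both animals the adjusted p stayed under the threshold in all 3 comparisons.

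Nqo1, a quinone reductase often used as a readout of NRF2 (chr8:107388225-107403205, minus strand), was the least abundant of the 10, with 24 to 66 counts in any mouse. It measured 2.02 ± 0.402 CPM (SD) in ctrl-PBS, 2.31 ± 0.407 in TDP-PBS, 2.32 ± 0.541 in TDP-10+12 and 2.06 ± 0.427 in TDP-15. The 4 groups overlapped almost fully, with 7 of 32 rNLS8 mice above the highest ctrl-PBS mouse. Its log2 fold changes were 0.19 with a 95% interval of -0.05 to 0.43 in TDP-PBS (edgeR adjusted p = 0.211), 0.19 in TDP-10+12 (-0.05 to 0.44) and 0.02 in TDP-15 (-0.21 to 0.26).

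**Figure D1:**
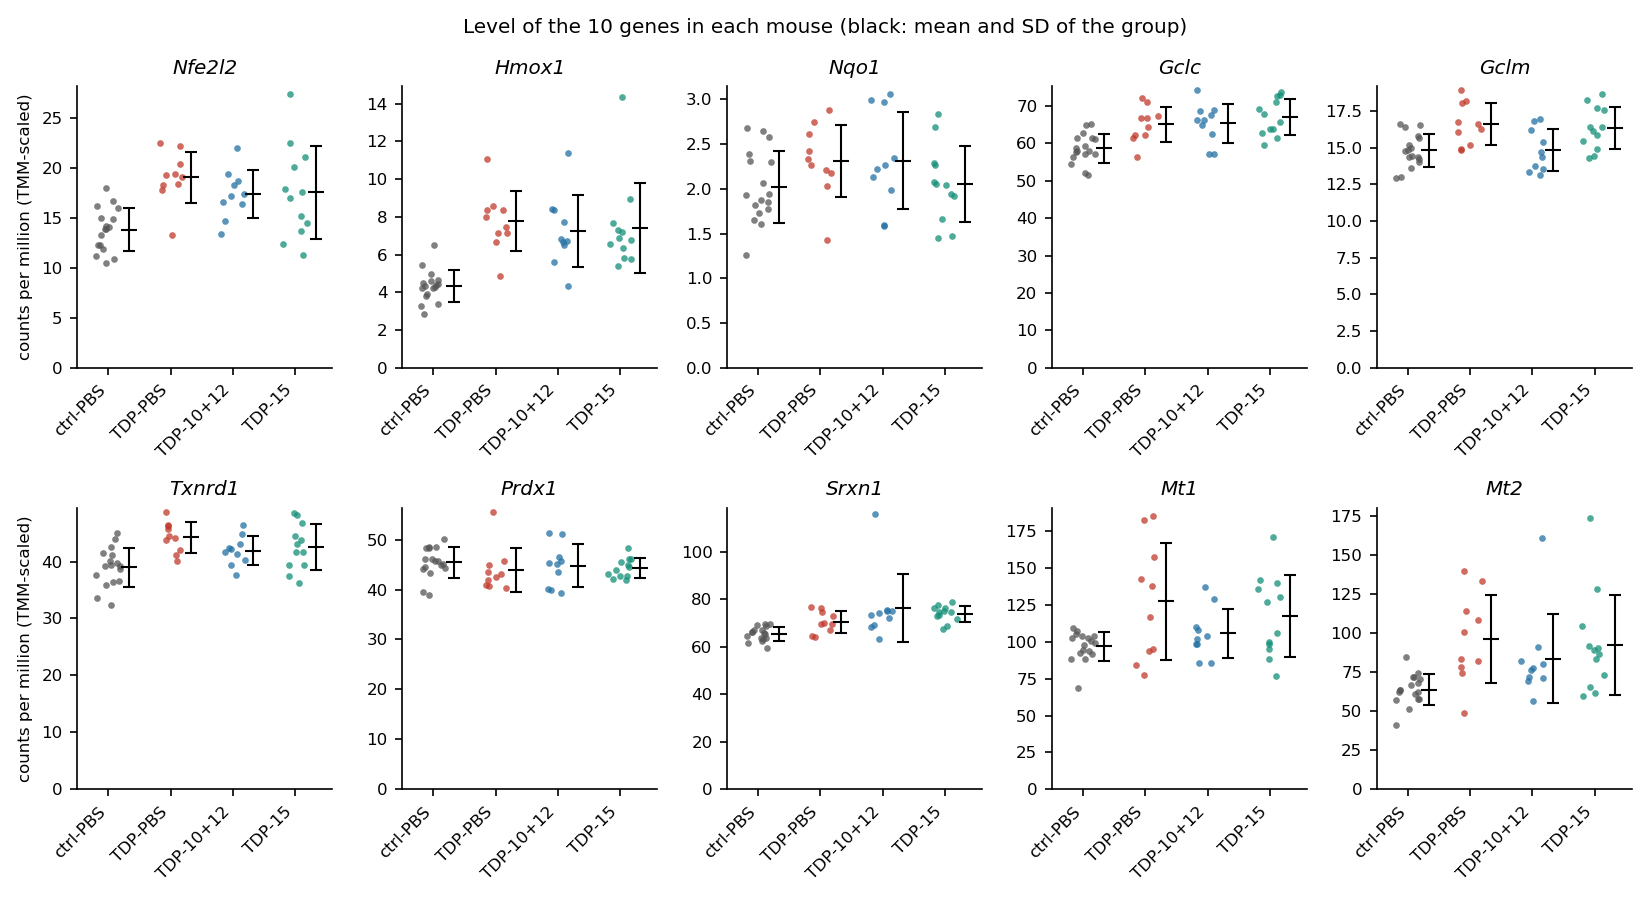
CPM of each of the 10 genes (vertical axis, TMM-scaled, from 0) in each mouse of the 4 groups (horizontal axis); black marks are the group mean and SD. Hmox1 separates the rNLS8 groups from ctrl-PBS most clearly, with 24 of 32 rNLS8 mice above every control, and animal 301 stands apart for Srxn1 at 116.

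Gclc and Gclm code for the catalytic and the modifier subunit of glutamate-cysteine ligase, the first and rate-limiting enzyme of glutathione synthesis. Gclc (chr9:77754535-77794489, plus strand) lay between 51.4 and 65.2 CPM in ctrl-PBS with a median of 58.0. In TDP-PBS it ranged from 56.5 to 72.0 (median 65.5), in TDP-10+12 from 57.1 to 74.2 (median 66.2) and in TDP-15 from 59.6 to 73.6 (median 66.8). Of 32 rNLS8 mice, 29 lay above the ctrl-PBS median and 18 above every ctrl-PBS mouse, although the groups overlapped. Gclc rose by 0.15 ± 0.04 log2 units in TDP-PBS (edgeR adjusted p = 0.00316), 0.16 ± 0.04 in TDP-10+12 (adjusted p = 0.00221) and 0.19 ± 0.04 in TDP-15 (adjusted p = 7.03e-05).

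Gclm (chr3:122245487-122267215, plus strand) was called in TDP-PBS and TDP-15 and not in TDP-10+12. In ctrl-PBS it lay between 12.9 and 16.6 CPM (median 14.8), in TDP-PBS between 14.8 and 18.9 (median 16.4), in TDP-10+12 between 13.1 and 16.9 (median 14.5) and in TDP-15 between 14.3 and 18.7 (median 16.3). TDP-10+12 covered the range of ctrl-PBS, with 4 of 10 mice above the ctrl-PBS median against 10 of 10 in TDP-PBS and 10 of 12 in TDP-15. Gclm rose by 0.16 ± 0.05 log2 units in TDP-PBS (edgeR adjusted p = 0.00833) and by 0.14 ± 0.05 in TDP-15 (adjusted p = 0.0142), and was at 0.00 in TDP-10+12, with an interval of -0.10 to 0.11 (adjusted p = 0.989). Compared directly, Gclm was -0.16 ± 0.06 in TDP-10+12 against TDP-PBS (unadjusted p = 0.00751, edgeR adjusted p = 0.902) and -0.14 ± 0.06 against TDP-15 (unadjusted p = 0.0145, edgeR adjusted p = 0.614), so neither direct difference passed over all genes. Annotated genes Gm46822 and Gm6061 overlap Gclm, and reads could not be assigned between them here.

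Txnrd1, Prdx1 and Srxn1 belong to the thioredoxin branch: thioredoxin reductase 1 keeps cytosolic thioredoxin reduced, peroxiredoxin 1 removes hydrogen peroxide with its help, and sulfiredoxin repairs peroxiredoxins that have been over-oxidized. Txnrd1 (chr10:82833951-82897724, plus strand) measured 39.0 ± 3.40 CPM in ctrl-PBS, 44.2 ± 2.66 in TDP-PBS, 41.9 ± 2.54 in TDP-10+12 and 42.5 ± 4.03 in TDP-15. It rose by 0.18 ± 0.05 log2 units in TDP-PBS (edgeR adjusted p = 0.00104) and by 0.13 ± 0.04 in TDP-15 (adjusted p = 0.0152). In TDP-10+12 the value was 0.10 ± 0.05 (adjusted p = 0.065), and it passed in 19 of 49 fits that left out 1 mouse. Most rNLS8 mice, 29 of 32, lay above the ctrl-PBS median.

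Prdx1 (chr4:116685599-116700000, plus strand) moved little. Its CPM was 45.4 ± 3.02 in ctrl-PBS, 43.9 ± 4.46 in TDP-PBS, 44.8 ± 4.24 in TDP-10+12 and 44.3 ± 1.95 in TDP-15. The log2 differences were -0.05 (-0.14 to 0.04), -0.02 (-0.11 to 0.07) and -0.04 (-0.12 to 0.05), with edgeR adjusted p of 0.396, 0.75 and 0.512. Only 7 of 32 rNLS8 mice lay above the ctrl-PBS median, and 25 of 32 did so for Nqo1. The lncRNA AV051173 overlaps Prdx1, and Gm38560 and Eid3 overlap Txnrd1.

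Srxn1 (chr2:152105524-152111376, plus strand) had the smallest spread of the 10 in ctrl-PBS relative to its mean, between 59.4 and 69.7 CPM (median 65.6). It lay between 64.0 and 76.8 in TDP-PBS (median 69.8), between 63.4 and 115.8 in TDP-10+12 (median 73.9) and between 67.4 and 78.8 in TDP-15 (median 74.7). In TDP-15, 10 of 12 mice exceeded the highest control, and 22 of 32 did so over the 3 rNLS8 groups. Srxn1 rose by 0.22 ± 0.05 log2 units in TDP-10+12 (edgeR adjusted p = 0.000336) and by 0.18 ± 0.05 in TDP-15 (adjusted p = 0.0019). In TDP-PBS the value was 0.11 ± 0.05 (adjusted p = 0.0809), and it passed, at 0.12, without animals 301 and 126 (adjusted p = 0.002). Neither animal belongs to TDP-PBS or ctrl-PBS, but the fit shares its estimate of the spread over all 4 groups. Without both animals the rise in TDP-10+12 was 0.15.

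Mt1 and Mt2 were the most abundant members per kilobase of exon in ctrl-PBS, with 77.9 ± 7.86 and 109 ± 16.7 CPM per kilobase (n = 17), against 127 ± 12.4 for Mt3 and 23.2 ± 1.06 for Srxn1, the next of the 10. Mt2 (chr8:94172618-94173567, plus strand) lay between 41.5 and 84.6 CPM in ctrl-PBS with a median of 63.5. It ranged from 48.9 to 139.8 in TDP-PBS (median 92.1), from 56.7 to 161 in TDP-10+12 (median 77.2) and from 60.0 to 174 in TDP-15 (median 87.8). The rNLS8 mice reached far above the controls but also overlapped them, 14 of 32 exceeding every ctrl-PBS mouse. Mt2 rose by 0.59 ± 0.14 log2 units in TDP-PBS (1.51-fold, edgeR adjusted p = 0.000578), 0.39 ± 0.14 in TDP-10+12 (1.31-fold, adjusted p = 0.0244) and 0.53 ± 0.14 in TDP-15 (1.45-fold, adjusted p = 0.000964). The rise in TDP-10+12 rested on animal 301, which held 161 CPM where the next mouse held 91.4: without it the value was 0.25 (adjusted p = 0.143), and limma-voom with quality weights gave 0.25 (adjusted p = 0.108). Without the 11 mice rich in choroid plexus markers, described further on, it was 0.38 (adjusted p = 0.0687).

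Mt1 (chr8:94178883-94180327, plus strand) ranged from 68.5 to 109 CPM in ctrl-PBS (median 98.8), from 77.8 to 185 in TDP-PBS (median 127), from 85.4 to 137 in TDP-10+12 (median 103) and from 76.9 to 171 in TDP-15 (median 117). Its spread was wider in rNLS8 mice, with a coefficient of variation of 10.1% in ctrl-PBS, 31.2% in TDP-PBS, 15.6% in TDP-10+12 and 23.5% in TDP-15, and the difference in spread was not tested. In TDP-PBS, 6 of 10 mice exceeded the highest control. The log2 fold change was 0.39 ± 0.11 in TDP-PBS (edgeR adjusted p = 0.00331), 0.28 ± 0.11 in TDP-15 (adjusted p = 0.0281) and 0.13 ± 0.11 in TDP-10+12 (adjusted p = 0.393). The call in TDP-15 was lost without animal 59, 126 or 328, with values of 0.26 (adjusted p = 0.0502), 0.22 (adjusted p = 0.0884) and 0.25 (adjusted p = 0.0559). Without the 11 mice rich in choroid plexus markers the call was lost in TDP-PBS (0.28, adjusted p = 0.0601) and in TDP-15 (0.24, adjusted p = 0.0762), and limma-voom with quality weights gave 0.20 in TDP-15 (adjusted p = 0.0916).

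Counted together, 7 of the 10 genes were higher and 0 lower in TDP-PBS, where 21.9% of all 18220 genes tested were higher and 21.6% lower. In TDP-10+12 the members' count was 5 higher and 0 lower beside 20.8% and 20.0% of all genes. In TDP-15 it was 8 higher and 0 lower beside 23.6% and 23.2%. The median log2 fold change of the 10 was 0.19, 0.17 and 0.18 in these comparisons, while the median of all genes lay between -0.00150 and 0.00306. The 10 genes were chosen with earlier results of these data known, so the counts describe them and do not test an excess over all genes. The 3 comparisons share the 17 ctrl-PBS mice. Hmox1 alone of the 10 had a difference over 0.5 in all 3, and Mt2 passed that size in TDP-PBS and TDP-15.

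**Figure D2:**
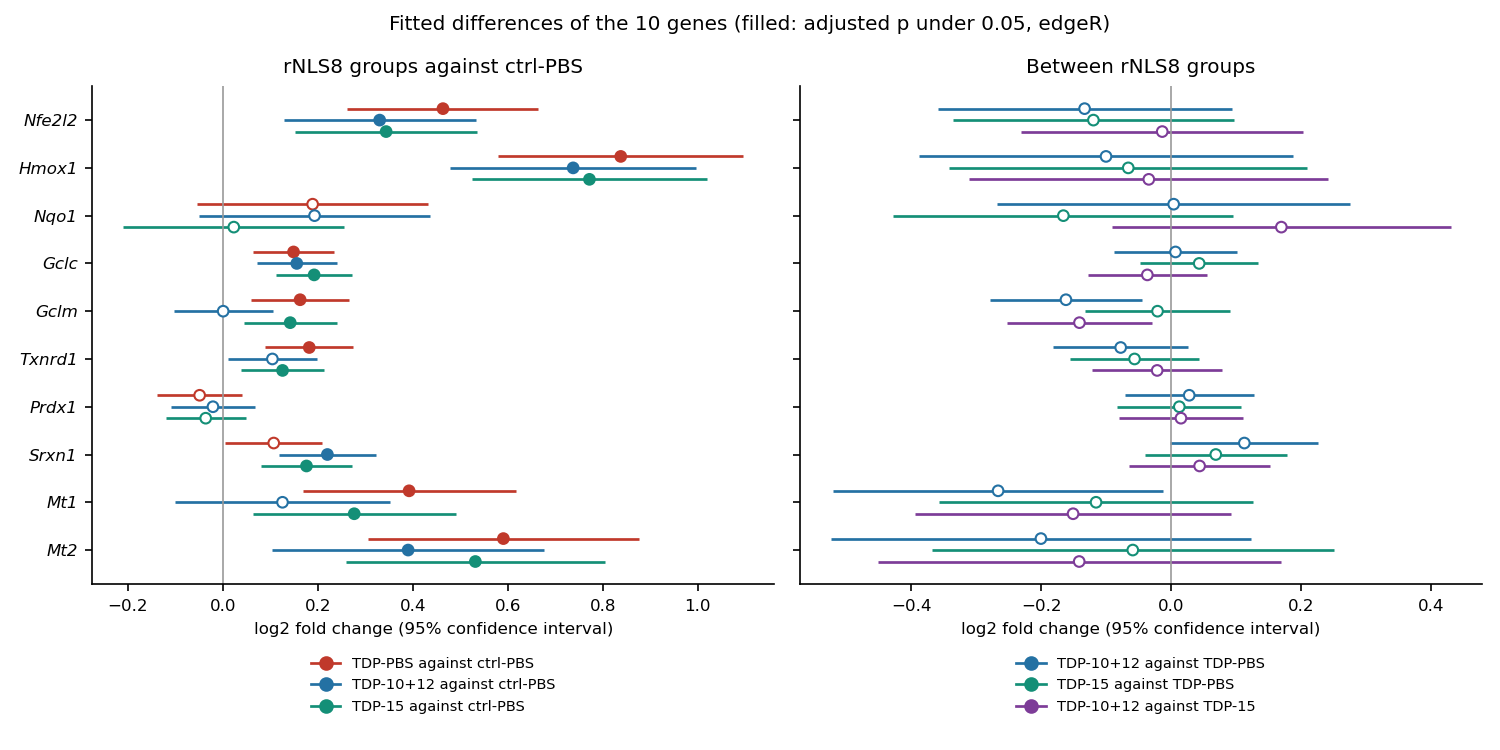
Fitted log2 fold changes (horizontal axis) of the 10 genes with their 95% confidence intervals, for the 3 rNLS8 groups against ctrl-PBS (left) and between the rNLS8 groups (right); filled points have an edgeR adjusted p under 0.05. On the left 7, 5 and 8 points are filled, all to the right of 0, and on the right 0 are filled.

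The comparisons between rNLS8 groups asked whether immunization altered these genes. None of the 10 passed in TDP-10+12 against TDP-PBS, TDP-15 against TDP-PBS or TDP-10+12 against TDP-15, where edgeR also called 0% of all genes, with 953, 552 and 1244 genes at an unadjusted p under 0.05. Of the members, 2, 0 and 1 reached that unadjusted level. Apart from Gclm, this was Mt1 in TDP-10+12 against TDP-PBS, at -0.27 with an interval of -0.52 to -0.01 (unadjusted p = 0.0401, edgeR adjusted p = 0.934). For Hmox1 the interval of TDP-15 against TDP-PBS ran from -0.34 to 0.21 and that of TDP-10+12 against TDP-PBS from -0.39 to 0.19. For Nfe2l2 these intervals were -0.34 to 0.10 and -0.36 to 0.09, and for Mt2 they were -0.37 to 0.25 and -0.52 to 0.12. The intervals of Gclc were the narrowest, from -0.05 to 0.13 and from -0.09 to 0.10. By DESeq2, 0, 0 and 2 of all genes were called in these comparisons, and by limma-voom with quality weights 2, 0 and 0, none of them a member.

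Sex did not separate the genes in these data. None of the 10 differed between 24 males and 25 females once group was in the fit, beside 0.0274% of genes higher and 0.0659% lower in males, and the largest member difference was 0.10 for Mt2, with an interval of -0.12 to 0.31. In the 27 PBS-treated mice the rise of Hmox1 in rNLS8 was 0.83 log2 units in females and 0.87 in males, that of Mt2 was 0.59 and 0.63, and that of Nfe2l2 was 0.50 and 0.45. The genotype by sex interaction passed for 0% of 18589 genes (edgeR, with 1167 at an unadjusted p under 0.05), and its interval for Hmox1 ran from -0.42 to 0.50.

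Genes around the members were read from lists of the same pathways, whose counts stand beside the 21.9% of all genes that were higher and 21.6% lower in TDP-PBS. Among 13 regulators of NRF2, 5 were higher and 3 lower in TDP-PBS, with a median of 0.04. The small MAF partners Maff and Mafk rose by 1.10 ± 0.26 and 0.44 ± 0.11 log2 units (edgeR adjusted p = 0.00054 and 0.000638), whereas the other small MAF gene, Mafg, was at -0.13 (adjusted p = 0.0671). Maff was scarce, at 0.723 ± 0.253 CPM in ctrl-PBS and 1.56 ± 0.582 in TDP-PBS. The repressor Bach1 rose by 0.39 ± 0.07 (adjusted p = 5.76e-06), from 7.81 ± 0.747 CPM in ctrl-PBS to 10.2 ± 1.58 in TDP-PBS. Keap1 rose by 0.22 ± 0.05 (adjusted p = 0.000172) and Sqstm1, the autophagy receptor that binds Keap1, by 0.10 ± 0.04 (adjusted p = 0.021). Btrc, part of a second ubiquitin ligase that marks NRF2, fell by 0.14 on the log2 scale (adjusted p = 0.000831), and so did Rbx1, a ubiquitin ligase subunit (adjusted p = 0.0284). The related factor Nfe2l1 was at 0.04 (adjusted p = 0.352). In TDP-10+12 the counts were 4 higher and 4 lower, and in TDP-15 5 higher and 3 lower.

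Of 28 other genes commonly listed as NRF2 targets, 7 were higher and 8 lower in TDP-PBS, 7 and 7 in TDP-10+12 and 10 and 7 in TDP-15, so this list moved in both directions. The ferritin light chain Ftl1 rose by 0.77 ± 0.07 log2 units (edgeR adjusted p = 1.55e-13), from 176 ± 17.0 to 301 ± 49.9 CPM, and the epoxide hydrolase Ephx1 by 0.56 ± 0.09 (adjusted p = 1.13e-06). The glutathione transferase Gsta3, also in the glutathione list, fell by 0.78 (adjusted p = 0.00529) and the carbonyl reductase Cbr3 by 0.49 (adjusted p = 0.000632). Slc7a11, the cystine transporter that feeds glutathione synthesis, was at -0.16 in TDP-PBS (adjusted p = 0.202) and at -0.25 ± 0.09 in TDP-15 (adjusted p = 0.0232). TDP-15 against TDP-PBS gave -0.10 for it, with an interval of -0.31 to 0.12. Among 34 glutathione genes outside the members, 13 were higher and 5 lower in TDP-PBS, 12 and 6 in TDP-10+12 and 14 and 6 in TDP-15. The list was led in TDP-PBS by Chac1, which breaks glutathione down (1.001 ± 0.14, adjusted p = 3.51e-08), and by Gpx8 (0.92 ± 0.19, adjusted p = 5.94e-05). Gsta4 fell by 0.39 (adjusted p = 0.00033).

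In the thioredoxin and peroxiredoxin system outside the members, 5 of 20 genes were higher and 3 lower in TDP-PBS. Sesn2, a stress-induced sestrin, rose by 0.56 ± 0.09 log2 units (edgeR adjusted p = 1.81e-06) and Txnip, which binds thioredoxin, by 0.38 ± 0.10 (adjusted p = 0.00161). Txndc12 fell by 0.41 (adjusted p = 1.8e-07) and Txn1, the thioredoxin that Txnrd1 reduces, by 0.28 (adjusted p = 3.45e-05). None of the 5 superoxide dismutase and catalase genes was higher and 3 were lower, among them Sod2 and Sod1, which fell by 0.43 and 0.27 (adjusted p = 1.14e-09 and 4.49e-05).

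Of 20 further heme and iron genes tested, 7 were higher and 2 lower in TDP-PBS, with Hpx too low to test. Beside Ftl1, the iron importer Slc11a2 rose by 0.47 ± 0.04 log2 units (edgeR adjusted p = 9.32e-15), from 36.3 ± 1.95 to 50.2 ± 3.50 CPM, while Fth1, the heavy chain of ferritin, fell by 0.22 (adjusted p = 0.0068) and Fech, the last enzyme of heme synthesis, by 0.21 (adjusted p = 9.31e-07). Of 22 genes of metal handling, 5 were higher and 2 lower, with Mt4 too low to test. Ceruloplasmin (Cp) and the zinc importer Slc39a14 rose by 0.46 ± 0.09 and 0.39 ± 0.05 (adjusted p = 3.12e-05 and 1.04e-08). The zinc importer Slc39a10 fell by 0.90 (adjusted p = 7.11e-15), from 163 ± 22.9 to 87.4 ± 11.9 CPM. Slc30a10 fell by 0.37 (adjusted p = 0.00161). Mtf1, the zinc sensor, was at 0.06 in TDP-PBS (adjusted p = 0.398). Mt3 did not rise with Mt1 and Mt2: it was at -0.11 in TDP-PBS (adjusted p = 0.126) and lower in TDP-10+12 and TDP-15 (both -0.18, adjusted p = 0.0153 and 0.00852).

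Glucocorticoid-responsive genes were read because metallothioneins respond to glucocorticoids. Of 17 genes, 8 were higher and 0 lower in TDP-PBS, with a median of 0.41, against 7 and 2 in TDP-10+12 and 8 and 0 in TDP-15. Plin4 rose by 2.77 ± 0.34 log2 units (edgeR adjusted p = 2.17e-09), from 4.28 ± 2.02 to 29.2 ± 19.6 CPM, and Cdkn1a, a cell cycle inhibitor that p53 also induces, by 1.02 ± 0.17 (adjusted p = 2.21e-06).

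**Figure D3:**
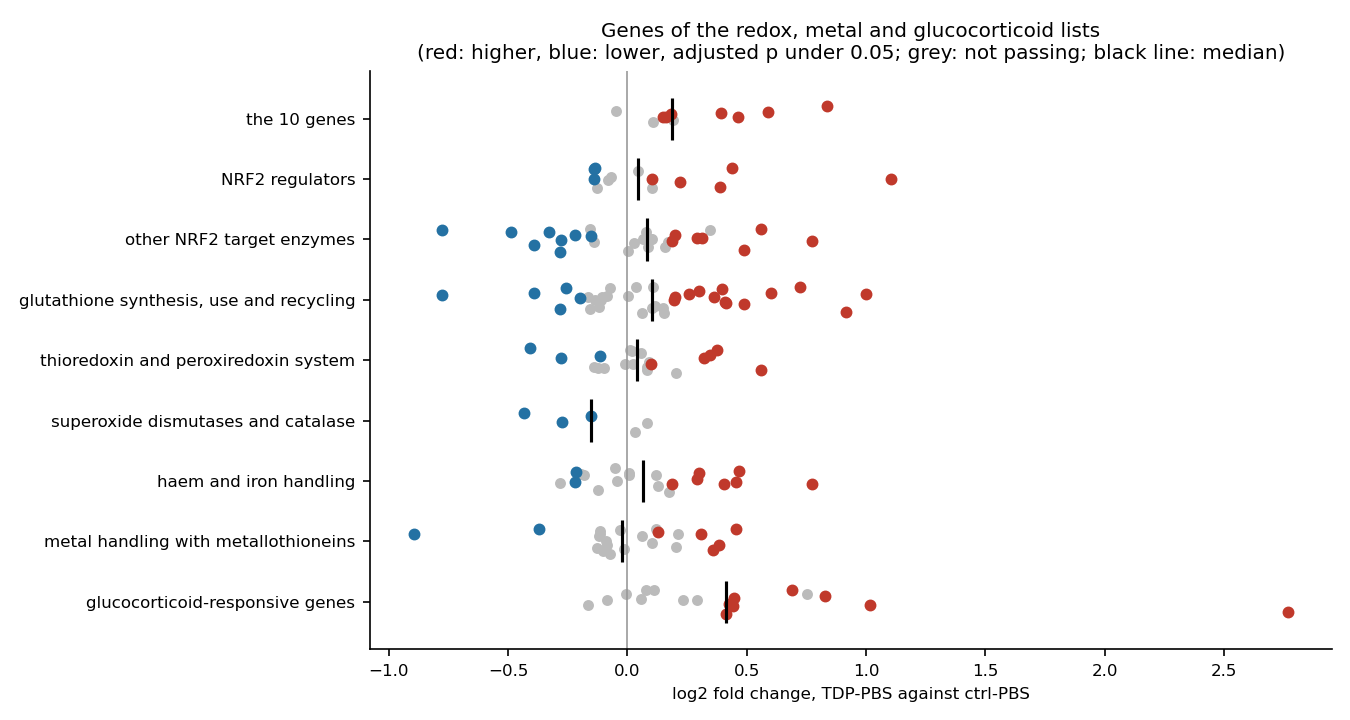
Differences of TDP-PBS from ctrl-PBS as log2 fold changes (horizontal axis) of the 10 genes and of the genes of 8 related lists; red and blue points are higher and lower at an edgeR adjusted p under 0.05, grey points did not pass, and black lines are medians. The 10 genes hold 7 red and 0 blue points, while the other NRF2 targets hold 7 red and 8 blue.

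To ask which of the 10 varied together, log2 CPM were centred on each group's mean, so that the difference between genotypes gave no relation. Of 45 pairs, 9 passed a permutation test within groups (Benjamini-Hochberg over the 45), all of them positive, with raw p from 1e-05 to 0.00914. Mt1 and Mt2 were tied most closely, with Pearson's r = 0.85 and Spearman's rho = 0.87 over 49 mice. The permutation adjusted p was 0.00045 for both, the smallest that these permutations can give. Without the 2 mice farthest from the median of the first-named gene, here Mt1, r was 0.82. The relation held in each group, with r = 0.83 in ctrl-PBS, 0.92 in TDP-PBS, 0.76 in TDP-10+12 and 0.89 in TDP-15. Nfe2l2 and Txnrd1 were related at r = 0.59 and rho = 0.52 (adjusted p = 0.0009 and 0.0103), with r = 0.26 in ctrl-PBS, 0.26 in TDP-PBS, 0.82 in TDP-10+12 and 0.91 in TDP-15. Nfe2l2 and Hmox1 were related at r = 0.46, falling to 0.29 without the 2 mice farthest for Nfe2l2. Hmox1 and Mt2 were related at r = 0.46, falling to 0.21 without the 2 mice farthest for Hmox1. Neither passed by rho (adjusted p = 0.0641 and 0.247), so both rested largely on the mice left out. In ctrl-PBS these relations were -0.16 and -0.02. Hmox1 was also related to Prdx1 (r = 0.46, rho = 0.45, adjusted p = 0.0149 and 0.0316) and to Txnrd1 (r = 0.44, rho = 0.43, adjusted p = 0.0149 and 0.0321), falling to 0.37 and 0.33 without the 2 farthest mice. Within TDP-PBS the relation of Hmox1 to Txnrd1 was -0.24, against 0.34 in ctrl-PBS, 0.89 in TDP-10+12 and 0.63 in TDP-15. The remaining passing pairs, Prdx1 with Mt2, Nfe2l2 with Mt2 and Gclc with Prdx1, had r of 0.44, 0.40 and 0.39 and did not pass by Spearman's rho.

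Of 24 tests of a cell type marker list in an rNLS8 group against ctrl-PBS, 8 passed, those of microglia, neurons and, in TDP-PBS and TDP-10+12, fibroblasts. The oligodendrocyte, endothelial and pericyte, and erythroid lists did not pass in any group (adjusted p from 0.243 to 0.941). The summed CPM of 12 microglia markers was 378 in ctrl-PBS, ranging from 345 to 418, and 602 in TDP-PBS (472 to 723), 550 in TDP-10+12 (349 to 674) and 603 in TDP-15 (380 to 991), each with a permutation adjusted p of 3.43e-05 over 24 tests. In TDP-PBS 10 of these 12 genes were higher and 0 lower, among them Ctss and C1qc, and 0 of them were at 0 in any mouse. The sum of 14 cortical neuron markers fell from 11886 (10267 to 13807) to 8894, 8558 and 8764 (adjusted p = 3.43e-05 each). Of these 14 genes, 6 were lower, 1 was higher and 7 did not pass in TDP-PBS, and the sum is dominated by abundant genes such as Camk2a (4532 CPM in ctrl-PBS and 3152 in TDP-PBS) and Snap25 (2682 and 1673). The sum of 12 astrocyte markers was 3286 in ctrl-PBS and 3128, 3173 and 3079 in the rNLS8 groups (adjusted p = 0.208, 0.36 and 0.105), although Gfap rose by 1.64 ± 0.18 log2 units in TDP-PBS (edgeR adjusted p = 9.88e-11). Sums of 9 fibroblast and meningeal markers were 134 in ctrl-PBS and 173, 193 and 160 (adjusted p = 0.0232, 3.43e-05 and 0.064). On mean log2 CPM the astrocyte list was instead slightly higher in the rNLS8 groups (adjusted p = 0.154, 0.153 and 0.416), and the fibroblast list passed in TDP-10+12 alone (adjusted p = 0.284, 0.000857 and 0.399). Choroid plexus markers differed greatly between mice, from 14.0 to 375 CPM in ctrl-PBS and up to 1293, 1715 and 1563 in the rNLS8 groups. Their sums did not pass (adjusted p = 0.243, 0.151 and 0.258), edgeR called 5 of the 7 genes higher in TDP-10+12, and 2 of the 7 were at 0 in some mice. The part of these cell types in the members' differences was not tested.

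Within groups, 8 of 90 relations between a member and a list passed a permutation test (Benjamini-Hochberg over the 90, raw p from 1e-05 to 0.00428). Mt1 and Mt2 followed the mean of the 17 glucocorticoid-responsive genes, with r = 0.73 and 0.72 and rho = 0.67 and 0.70 (adjusted p = 0.0003 by r and 0.0009 by rho), and r = 0.67 for both without the 2 farthest mice. For Mt2, r was 0.29 in ctrl-PBS, 0.80 in TDP-PBS, 0.68 in TDP-10+12 and 0.85 in TDP-15. Hmox1 followed the microglia markers at r = 0.63 and rho = 0.43 (adjusted p = 0.0003 and 0.0573), with r = 0.09 in ctrl-PBS, 0.39 in TDP-PBS, 0.75 in TDP-10+12 and 0.88 in TDP-15. This relation fell to r = 0.49 without the 2 farthest mice and did not pass by rho. Nfe2l2 and Mt2 followed the same markers at r = 0.58 and 0.57, falling to 0.38 and 0.42 without the 2 farthest mice, and neither passed by rho (adjusted p = 0.109 and 0.0511). Mt1 followed the astrocyte markers at r = 0.58 and rho = 0.59 (adjusted p = 0.00306 and 0.0018). Its r was 0.25 in ctrl-PBS, 0.82 in TDP-PBS, 0.70 in TDP-10+12 and 0.39 in TDP-15. Mt2 did not pass with the astrocyte markers (r = 0.42, permutation adjusted p = 0.0712). Nqo1 followed the choroid plexus markers at r = 0.44, and Gclc ran against the fibroblast and meningeal markers at r = -0.41, and neither passed by rho. Whether these relations differ between groups was not tested.

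**Figure D4:**
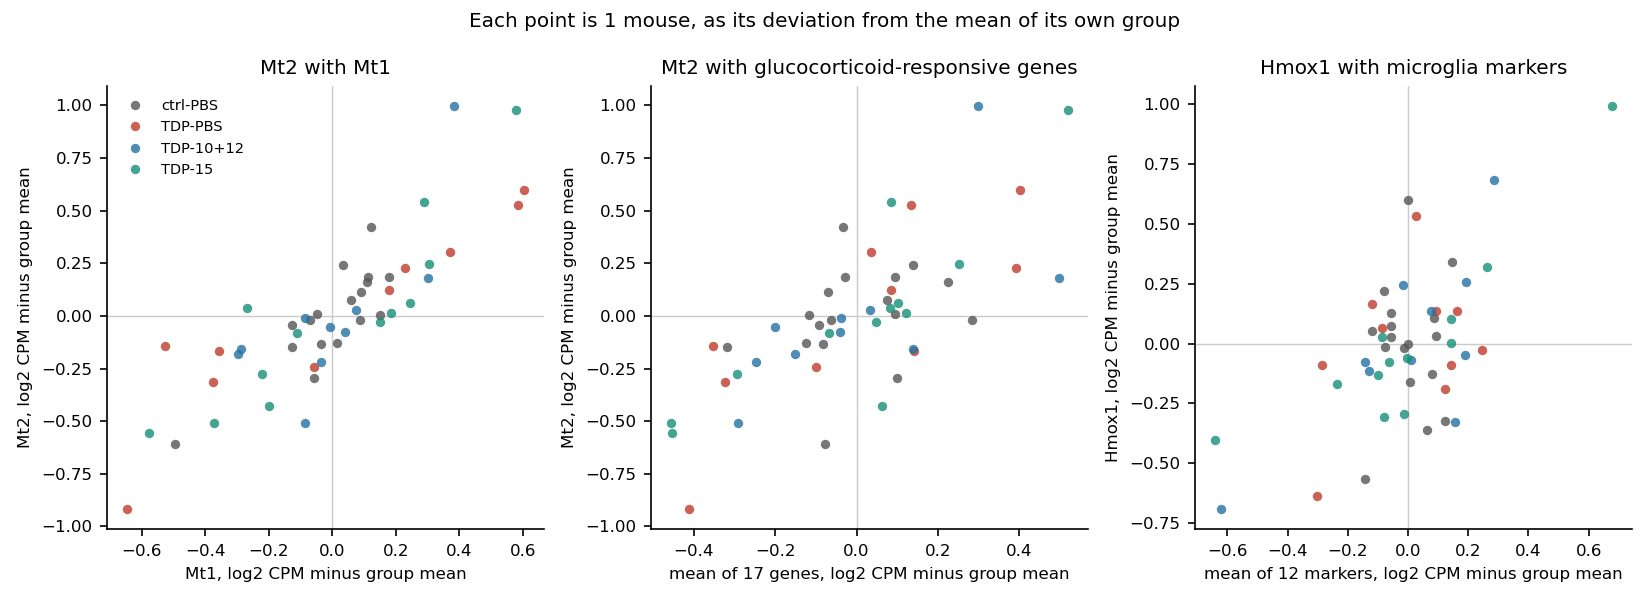
Each point is 1 of 49 mice, plotted as log2 CPM minus the mean of its own group: Mt2 against Mt1 (left), Mt2 against the mean of 17 glucocorticoid-responsive genes (middle) and Hmox1 against the mean of 12 microglia markers (right). The left panel is the tightest, with r = 0.85, and in the right panel, with r = 0.63, 1 TDP-15 mouse, animal 126, lies far to the upper right.

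The genes whose centred pattern over 49 mice was most like each member are given as a description. Mt2 and then Tsc22d4 led for Mt1 (r = 0.85 and 0.77), and Mt1 and Tsc22d4 for Mt2 (0.85 and 0.78), followed by Apod at 0.74. For Hmox1 they were Cd151, Nupr1 and Cd53 at 0.71, 0.69 and 0.68, and for Nfe2l2 Was, Dpf2 and Mob3a at 0.66, 0.65 and 0.64. Srxn1 was most like Pmepa1, Skil and Chga (0.76, 0.71 and 0.70) and Prdx1 like Selenof, Atp6v1g1 and Iftap (0.73, 0.71 and 0.69). For Txnrd1 the first was Per2 at 0.63, with Nfe2l2 the third at 0.59, for Gclc it was Btf3l4 at 0.66, for Gclm Tead3 at 0.56 and for Nqo1 Ido1 at 0.56.

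The mice with the highest levels were not the same for every member. Animal 301 of TDP-10+12 led its group for Nfe2l2, Hmox1, Gclc, Txnrd1, Srxn1, Mt1 and Mt2 and was the lowest for Nqo1 at 1.58 CPM. Animal 126 of TDP-15 led for Nfe2l2, Hmox1, Gclm, Txnrd1, Prdx1, Srxn1, Mt1 and Mt2 and was the lowest for Gclc at 59.6. In TDP-PBS the top values were spread over several animals, with 42 leading for Nfe2l2, 91 for Hmox1, 217 for Gclc, 251 for Gclm, 124 for Txnrd1, 26 for Prdx1 and Nqo1, 270 for Srxn1 and 82 for both metallothioneins. Animal 196 was the lowest of that group for Nfe2l2, Mt1 and Mt2. Without animals 301 and 126 together, the members called were 8, 4 and 7 in TDP-PBS, TDP-10+12 and TDP-15. Without the 11 mice that held over 100 CPM of summed choroid plexus markers, they were 6, 3 and 7, with Hmox1 and Gclc among them in each comparison. The share of all genes called was not computed for these fits without several mice.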

How the data were processed

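Neocortex of 49 mice was sequenced as poly(A) RNA with 100 bp paired-end reads, 1 library per mouse. The authors deposited 1 table of raw read counts per gene for all mice, made against GRCm38.p6 (mm10 in the labels). Their processing notes name HISAT, HISAT2, Bowtie, Bowtie2 and RSEM without versions. The annotation and the strand setting of counting are not given in the sources used here, and the whole-number counts may be rounded RSEM estimates. No gene was removed by hand, and 0 columns lacked a sample.

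Groups came from the sample labels. Genes passing edgeR's filterByExpr (minimum count 10, minimum total 15) were fitted in 1 quasi-likelihood model of the 4 groups (edgeR 4.0.16, R 4.3.3, TMM), with Benjamini-Hochberg adjustment over all 18220 genes. Intervals are 95%. DESeq2 1.42.0 and limma 3.58.1 gave alternatives. Log2 CPM used a prior count of 2. Permutation tests over mice were two-sided with 100000 resamples (Python 3.11.15, scipy 1.17.1), so that 1e-05 is the smallest p they give. Total counts between 17775738 and 21033608 set the precision, and counts of a gene carry counting error besides the spread between mice. Mice are separate animals, and the closest 2 libraries of a group differed by a chi-square of 7.24 per degree of freedom, so none was a copy. Promoters came from RefSeq.

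All 10 genes are named. From each list the text names the 2 largest changes in each direction in TDP-PBS, and Keap1, Bach1, Mafg, Nfe2l1, Sqstm1, Mt3, Mtf1 and Slc7a11 whatever their change. Up to 3 most similar genes are named per member. The members and lists were chosen with earlier results of these data known. The scripts were tested on simulated data.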

Additional observations from a re-analysis of the deposited data

Results flagged for a closer look

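Of 20 combinations of gene and group with 10 or fewer mice, 4 held a mouse farther from its neighbors than Dixon's 95% limit allows, where chance gives about 1 in 20. In TDP-10+12, animal 301 held 115.84 CPM of Srxn1, with the next mouse at 75.6, and 161 CPM of Mt2, with the next mouse at 91.4. In TDP-PBS, animal 26 held 55.6 CPM of Prdx1, with the next mouse at 45.7. Also in TDP-PBS, animal 196 was low for Nfe2l2 at 13.3 CPM, where the next lowest mouse held 17.8. TDP-15 and ctrl-PBS, with more than 10 mice, were not examined in this way.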

How the results depend on the processing

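Other normalizations, filters, a sex term, fits of only 2 groups, limma-voom with quality weights, DESeq2 and leaving out mice kept Hmox1 and Gclc called in all 3 comparisons with ctrl-PBS and called 0 members between rNLS8 groups. Requiring a log2 fold change over 0.5 left 2 members in TDP-PBS, 1 in TDP-10+12 and 2 in TDP-15. Without the 11 mice rich in choroid plexus markers, a choice made after seeing the data, as was leaving out animals 301 and 126, TDP-10+12 had 3. Leaving out each mouse gave 7 to 8, 4 to 6 and 7 to 8 members. For these counts against ctrl-PBS the share of all genes called was not computed. Relations between members numbered 8 to 11 and marker levels 7 under other scales.

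Directions turned only in values that did not pass. The largest in size was -0.123, for Nqo1 in TDP-15 against ctrl-PBS. With limma-voom and quality weights, Gclm in TDP-10+12 against ctrl-PBS was -0.0128, Nqo1 in TDP-10+12 against TDP-PBS -0.00372, and Prdx1 and Srxn1 in TDP-10+12 against TDP-15 -0.00463 and -0.0116. Without animals 301 and 126, Gclm in TDP-10+12 against ctrl-PBS was -0.00941, Gclc in TDP-10+12 against TDP-PBS -0.0153, and Nfe2l2 and Srxn1 in TDP-10+12 against TDP-15 0.0191 and -0.0327. Without the choroid-rich mice, Gclm in TDP-10+12 and Nqo1 in TDP-15 against ctrl-PBS were -0.0132 and -0.123, Nqo1 in TDP-10+12 against TDP-PBS -0.0557, Hmox1 and Mt2 in TDP-15 against TDP-PBS 0.00678 and 0.0456, and Prdx1 in TDP-10+12 against TDP-15 -0.0279.

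Leaving out 1 mouse at a time, values against ctrl-PBS ran from -0.0105 to 0.0305 for Gclm and -0.0323 to 0.00995 for Prdx1 in TDP-10+12, and -0.0266 to 0.0618 for Nqo1 in TDP-15. Against TDP-PBS they ran from -0.0564 to 0.0535 for Nqo1 and -0.0152 to 0.0271 for Gclc in TDP-10+12, and from -0.193 to 0.00144 for Hmox1, -0.0397 to 0.00190 for Gclm and -0.179 to 0.0155 for Mt2 in TDP-15. TDP-10+12 against TDP-15 ran from -0.0593 to 0.0614 for Nfe2l2, -0.127 to 0.0932 for Hmox1, -0.00739 to 0.0350 for Prdx1 and -0.0406 to 0.0716 for Srxn1. The cause was not tested. No paired analysis was made, because each animal belongs to 1 group and the labels used here give no litter. An effect of litter was not tested. With 24 to 66 counts per mouse, Nqo1 had the least depth of the 10 genes.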
